A study of Mus musculus with 4 samples.

Results

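The genes described here are 8 members of the Nodal branch of TGF-beta signalling, chosen by symbol: the ligand gene Nodal, its co-receptor gene Tdgf1, the receptor gene Acvr2b, the mediators Smad2 and Smad3, and the antagonist genes Lefty1, Lefty2 and Cer1. Of these, 7 were represented by 14 of the 28898 probe sets that the platform annotation tied to 1 gene, out of 17097 such genes in all. No probe set carried the symbol Tdgf1, so that gene was not analysed here. Expression had been measured in J1 mouse embryonic stem cells, a pluripotent line grown in serum and LIF without feeder cells, under 4 conditions with 1 Affymetrix array each. These were Tet1/Tet2 knockdown with PRDM14, Tet1/Tet2 knockdown, scramble with PRDM14, and scramble. The labels' protocols name the cells iP14, list them without and with Dox, and mark the double knockdown as shTet1/Tet2, while the source of the scramble array is called wild type and that of the PRDM14 arrays PRDM14-overexpressing. TET1 and TET2 are dioxygenases that oxidise 5-methylcytosine, and PRDM14 is a PR-domain regulator of pluripotent and germ cells. The question of the series was what TET1 and TET2 contribute to gene regulation by PRDM14. The arrays are called below by these condition names, and every direction rests on them.

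Nodal is a secreted TGF-beta family ligand. It signals through type I and type II activin receptors, for which Tdgf1 (Cripto) is a co-receptor, and the receptors phosphorylate SMAD2 and SMAD3, which enter the nucleus and act with SMAD4 and partners such as FOXH1. Lefty1 and Lefty2 are targets of this pathway and encode secreted inhibitors of Nodal, so the pathway carries its own negative feedback. Mouse embryonic stem cells express Nodal and the Lefty genes, and in the embryo the same pathway patterns the epiblast and sets left-right asymmetry.

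With a single array per condition there is no replicate check, and the small number of arrays limits precision. Calls of higher or lower were made where 2 arrays differed at least 2-fold, a log2 difference of 1, and the higher of them reached a log2 signal of 5.40, the median of all named probe sets. This is a rule of size and no test, and 5.40 is not a measured background. As a technical yardstick, the same difference varied between probe sets of 1 gene with a pooled SD of 0.15 to 0.22 on the log2 scale, depending on the comparison, and that SD covers neither cultures nor arrays. Median signals of the arrays were 5.09 to 5.11. The scramble array stood furthest from the rest, with 49 genes at least 2-fold from all 3 other arrays, against 12 on the knockdown with PRDM14 array, 7 on the knockdown array and 27 on the scramble with PRDM14 array. Tet2 read 8.15 and 7.50 on the knockdown arrays with and without PRDM14, against 9.33 and 8.46 on the corresponding scramble arrays. Tet1 was not analysed here, so the knockdown labels were read against Tet2 alone. Prdm14 read below 5.40 on all 4 arrays, at most 4.83, and so gave no check of the PRDM14 labels.

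Markers of the labelled cell type were present on every array. All 10 pluripotency markers read above the filter, and their mean log2 level was 9.78 on the knockdown with PRDM14 array, 9.97 on the knockdown array, 10.16 on the scramble with PRDM14 array and 9.96 on the scramble array. In the knockdown with PRDM14 8 of these 10 read lower than in scramble with PRDM14, with a median of −0.31, against 0.003 over all genes. Klf4, a naive pluripotency factor gene, was called lower at −1.21, a call that 0.475% of all genes met. Of 8 primitive endoderm markers 2 or 3 reached the filter on an array, of 6 mesoderm and definitive endoderm markers 1 or 2, of 5 neuroectoderm markers 1 or 2 and of 7 fibroblast markers 1. Over all genes 10519 of 17097 reached it on at least 1 array. The mean level of the primitive endoderm list, the lineage in which Cer1 is also expressed in the embryo, lay between 4.95 and 5.04. In bulk RNA fewer cells of a kind and less RNA per cell cannot be told apart. The part of these markers in the results below was not tested.

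Lefty2 was the member that differed most. Its 1 probe set, 1436227_PM_at, read 5.67 on the knockdown with PRDM14 array and 5.15 on the knockdown array, against 6.85 on the scramble with PRDM14 array and 6.46 on the scramble array. Both knockdown arrays thus read below both scramble arrays, and the knockdown array lay below the filter. The share of all genes that separate in this way was not counted. A looser pattern, lower in both knockdown comparisons, was met by 25.1% of 10154 genes. Without PRDM14 the knockdown minus scramble difference was −1.31 on the log2 scale, a 2.47-fold lower signal, and with PRDM14 it was −1.18, or 2.27-fold lower. Over all genes tested 0.444% were called lower in the knockdown without PRDM14 and 0.475% with PRDM14, and Lefty2 ranked 17 of 10351 and 28 of 10322 genes by the size of a lower signal. When values below the filter were raised to it, the difference without PRDM14 was −1.06.

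The comparison with PRDM14 does not use the scramble array that stood apart, and the 2 knockdown comparisons share no array. Among 10154 genes tested in both, 8 were called lower in both, or 0.0788%, which is 17.4% of the 46 genes called lower without PRDM14 and 16.3% of the 49 called lower with it. Lefty2 was 1 of these 8, and the others were Cpeb4, Egr1, Manba, Pfkp, Rpl39l, Slc25a16 and Trh. They were named after their values were seen. Of the 7 measured members Lefty2 alone was called in any of the 4 comparisons.

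Lefty1, which like Lefty2 lies on chromosome 1, differed less. Its probe set 1417638_PM_at read 8.94 on the knockdown with PRDM14 array and 8.83 on the knockdown array, against 9.19 on the scramble with PRDM14 array and 9.45 on the scramble array. Both knockdown arrays again read below both scramble arrays, a pattern whose share over all genes was not counted. The looser pattern, lower in both knockdown comparisons, was met by 25.1% of 10154 genes. The knockdown minus scramble difference was −0.62 without PRDM14, 1.53-fold lower, and −0.26 with PRDM14, 1.20-fold lower, both short of the 2-fold rule. In the first of these 4.21% of all genes tested had a difference of at least that size, and in the second 19.6%. Lefty1 and Lefty2 encode closely related proteins, and whether either probe set also reads the transcript of the other gene was not tested.

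The Lefty genes differed from each other in how they read with PRDM14. In knockdown cells Lefty2 was 0.52 higher with PRDM14 than without it, and in scramble cells 0.40 higher. Lefty1 was 0.11 higher with PRDM14 in knockdown cells and 0.25 lower in scramble cells. All 4 differences were under 2-fold. The raised values gave 0.28 for Lefty2 in knockdown cells, since the array without PRDM14 lay below the filter.

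**Figure D1:**
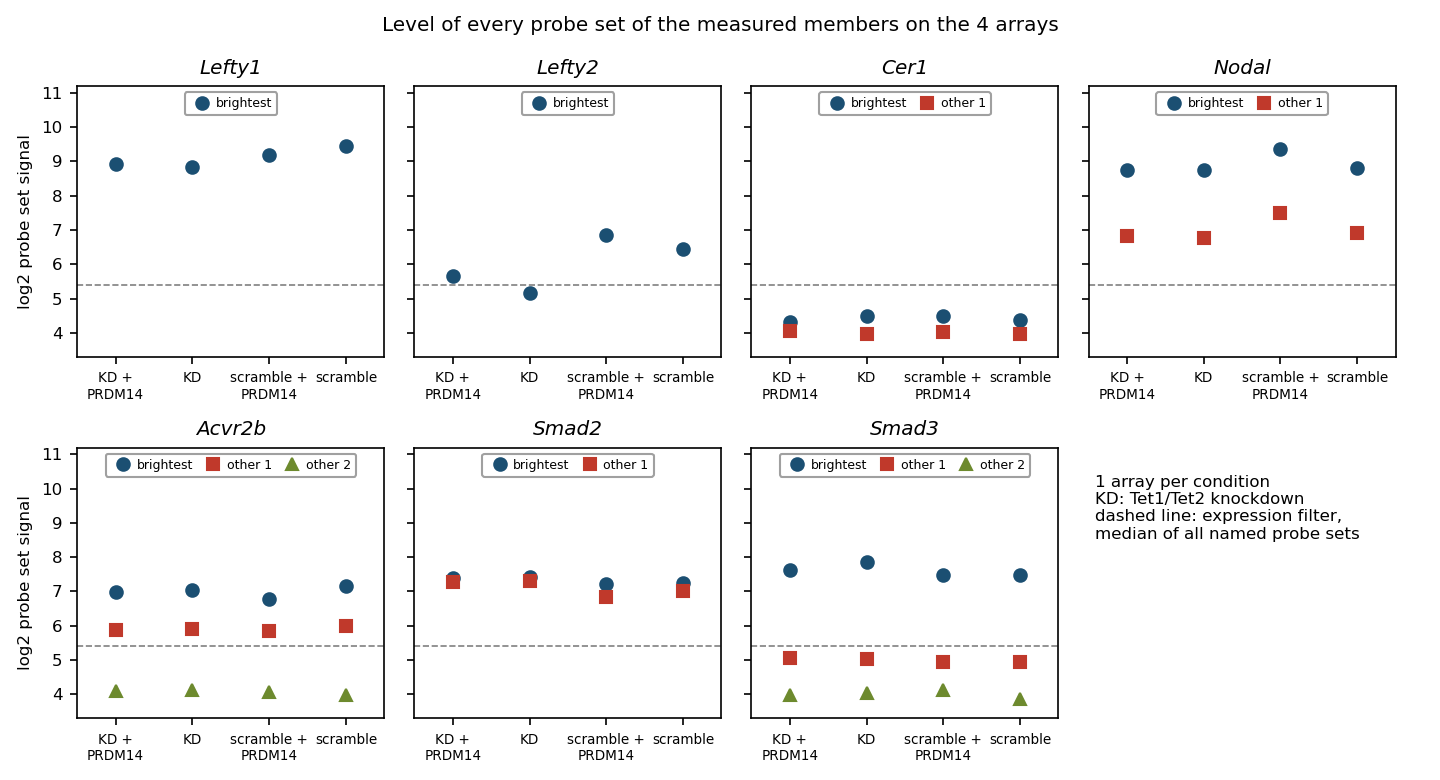
Log2 signal of all 14 probe sets of the 7 measured members (y axis) on the 4 arrays (x axis), 1 panel per gene, with 1 point per probe set and array and the filter of 5.40 as a dashed line; boxes hold the key. Lefty2 reads 5.67 and 5.15 on the knockdown arrays with and without PRDM14 and 6.85 and 6.46 on the scramble arrays, Nodal is highest on the scramble with PRDM14 array on both probe sets, and Cer1 is below the filter throughout.

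Cer1, which encodes a secreted antagonist of Nodal and BMP ligands, was not measured above the filter. Its brighter probe set read 4.31 on the knockdown with PRDM14 array, 4.50 on the knockdown array, 4.50 on the scramble with PRDM14 array and 4.36 on the scramble array. The other probe set lay between 3.97 and 4.05. No difference of Cer1 was read, because neither probe set reached the filter on any array.

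Nodal was highest on 1 array, scramble with PRDM14. Its brighter probe set, 1422058_PM_at, read 8.74 on the knockdown with PRDM14 array and 8.75 on the knockdown array, against 9.37 on the scramble with PRDM14 array and 8.80 on the scramble array. The second probe set, 1422057_PM_at, gave 6.82 and 6.78 against 7.50 and 6.91 in the same order. On both probe sets 3 arrays lay close together and the scramble with PRDM14 array stood above them.

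In scramble cells Nodal was therefore 0.58 higher with PRDM14 than without it on the brighter probe set, 1.49-fold, and 0.59 higher on the other. In knockdown cells the same differences were −0.01 and 0.04. With PRDM14 the knockdown minus scramble difference was −0.63, 1.55-fold lower, and −0.68 on the second probe set, while without PRDM14 it was −0.04 and −0.13. The difference between the PRDM14 differences, knockdown minus scramble, was −0.59 and −0.55 on the 2 probe sets, under the 2-fold rule that 2.27% of all genes passed in either direction. It rests on single arrays and was not tested. Of all genes tested 8.41% differed at least as much as Nodal with PRDM14 in scramble cells and 3.62% in the knockdown comparison with PRDM14. The first difference, 0.58, lay within the central 95% of all genes (−0.71 to 0.74). The second, −0.63, lay outside it (−0.52 to 0.57), though short of the 2-fold rule.

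**Figure D2:**
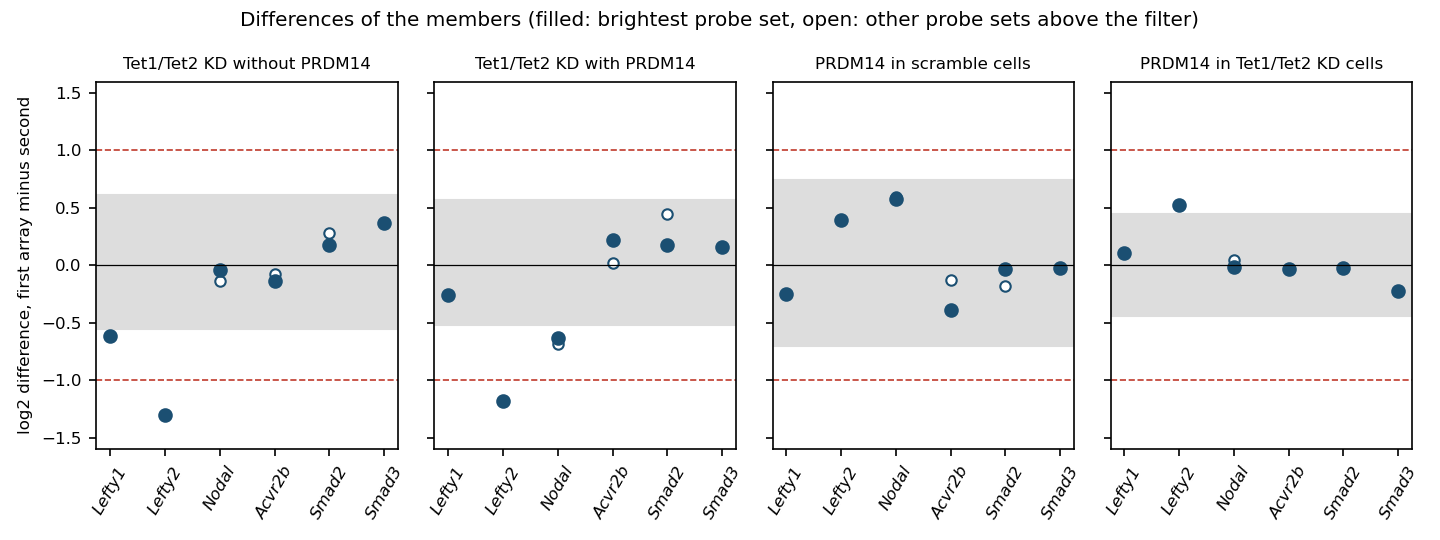
Log2 difference of the 6 members above the filter (y axis) in the 4 comparisons, knockdown minus scramble or with minus without PRDM14; filled points are the brightest probe set of a gene, open points its other probe sets above the filter. Grey bands hold the central 95% of all genes tested and dashed lines mark 2-fold. Lefty2 lies beyond −1 in both knockdown panels and no other member passes 2-fold in any panel.

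Acvr2b encodes a type II receptor for Nodal and activins. Its brightest probe set read 7.00 on the knockdown with PRDM14 array and 7.03 on the knockdown array, against 6.78 on the scramble with PRDM14 array and 7.17 on the scramble array. The 2 knockdown arrays thus lay between the 2 scramble arrays. In scramble cells it was 0.39 lower with PRDM14, and in knockdown cells 0.03 lower. The second probe set, at 5.85 to 5.98, gave 0.13 and 0.03 lower, and the third lay below the filter.

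Smad2 and Smad3 encode the receptor-activated mediators and differed little. The brighter Smad2 probe set read 7.39 and 7.42 on the knockdown arrays with and without PRDM14, against 7.22 and 7.25 on the corresponding scramble arrays. The knockdown minus scramble difference was 0.18 with PRDM14 and 0.17 without it, and 0.45 and 0.28 on the second probe set. Smad3 read 7.63 and 7.85 on the knockdown arrays with and without PRDM14, against 7.47 and 7.49 on the corresponding scramble arrays, or 0.16 and 0.37 higher in the knockdown. Both knockdown arrays read above both scramble arrays for Smad2 on each probe set and for Smad3 on its brightest. The share of all genes that do so was not counted, and 28.1% of 10154 genes were higher in both knockdown comparisons. The other 2 Smad3 probe sets lay below the filter. In the comparison without PRDM14, 38.4% of all genes tested differed at least as much as Smad2 and 14.3% as much as Smad3.

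The average of the 2 knockdown differences, and of the 2 PRDM14 differences, was tested in limma with an additive model over the 4 arrays, which leaves 1 residual degree of freedom per gene and takes the 2 factors to act independently. For Lefty2 the average knockdown effect was −1.24 on the log2 scale (95% interval −1.47 to −1.01), lower in 2 of 2 comparisons, and limma gave an adjusted p of 0.80 over 10519 genes. Over all genes limma called 0 at 5% for either factor, 0% of those tested, while 604 (5.74%) had an unadjusted p below 0.05 for the knockdown and 638 (6.07%) for PRDM14. Lefty1 had an average knockdown effect of −0.44 (95% interval −0.90 to 0.02, limma adjusted p 0.80) and Nodal of −0.34 (−0.95 to 0.27, limma adjusted p 0.80). Smad3 was at 0.26 (−0.08 to 0.61), Smad2 at 0.18 (−0.10 to 0.45) and Acvr2b at 0.04 (−0.35 to 0.43). The average PRDM14 effect was 0.46 for Lefty2 (0.23 to 0.69, limma adjusted p 0.78), 0.28 for Nodal (−0.33 to 0.89) and −0.07 for Lefty1 (−0.54 to 0.39). The intervals of Lefty2 depend on the filter: with the 75th percentile as the filter its SE was 0.289 in place of 0.0755, and the intervals were −0.37 to 1.29 for PRDM14, which includes 0, and −2.08 to −0.41 for the knockdown. No member passed the test for either factor.

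The promoters of Nodal and Cer1 are shown because they belong to a ligand read well above the filter on every array and to an antagonist read below it on all 4, and because the TET enzymes act on methylated cytosine, found mostly in CG dinucleotides. Both are the 250 bases before the annotated start, from RefSeq on GRCm38.p6, 5′ to 3′ on the strand of the gene, with each CG in capitals. Promoter sequences were matched for 5 of the 8 members: Nodal, Cer1, Acvr2b, Smad3 and Tdgf1. Lefty1, Lefty2 and Smad2 were not matched.
Nodal, chr10:61417722-61417971, plus strand: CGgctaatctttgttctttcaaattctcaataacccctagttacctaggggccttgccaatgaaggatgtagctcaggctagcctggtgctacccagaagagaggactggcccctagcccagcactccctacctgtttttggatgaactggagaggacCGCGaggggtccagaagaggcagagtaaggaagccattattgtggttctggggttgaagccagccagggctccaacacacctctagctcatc
Cer1, chr4:82885152-82885401, minus strand: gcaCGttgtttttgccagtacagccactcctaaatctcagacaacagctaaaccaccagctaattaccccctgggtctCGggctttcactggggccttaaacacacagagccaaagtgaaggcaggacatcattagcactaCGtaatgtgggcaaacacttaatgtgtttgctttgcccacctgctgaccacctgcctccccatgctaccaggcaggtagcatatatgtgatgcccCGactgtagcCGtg
The Nodal window held 3 CG dinucleotides and the Cer1 window 5, against 24 for Acvr2b, 22 for Smad3 and 7 for Tdgf1. Over 32851 promoters of the same length the median was 6, with quartiles of 2 and 16. Methylation was not measured in these files. The SMAD word CAGAC, on either strand, was found in 3 of the 5 windows, those of Cer1, Acvr2b and Tdgf1, and in 42.2% of all promoters. The FOXH1 word AATNNACA was found in the Tdgf1 window at 2 places and in 10.9% of all promoters. Its narrower form AATNCACA, every match of which is also a match of the wider word, was in none of the 5 and in 3.18% of all, and the palindromic SMAD word GTCTAGAC in none and 0.167%. A match is a string of letters and not a binding site, and a missing match says only that the letters are not in that window.

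Genes of the pathway, the measured members among them, were taken from lists by role, chosen with earlier results of these data known. They were counted against the same 2-fold rule. Each gene was read on its brightest probe set. Apart from Lefty2, 0 of the listed ligand and processing genes (7 above the filter), receptors (6), SMADs and partners (12) and antagonists (5, Lefty2 included) were called in any of the 4 comparisons. Over all genes 1.06% and 1.1% were called either way in the knockdown comparisons without and with PRDM14, and 2.09% and 0.63% in the PRDM14 comparisons in scramble and knockdown cells. In lists this small a count of 0 is near that background.

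Among ligands and their processing factors, Gdf3, a TGF-beta family ligand of pluripotent cells, ran like Nodal. It read 8.72 on the knockdown with PRDM14 array and 8.65 on the knockdown array, against 9.04 on the scramble with PRDM14 array and 8.56 on the scramble array, and its second probe set was also highest on the scramble with PRDM14 array, at 8.22. Cfc1, which encodes the Tdgf1-related co-receptor Cryptic, was 0.43 higher in the knockdown with PRDM14 and 0.03 higher without it. The convertase genes Furin and Pcsk6, whose products cleave the Nodal precursor, lay between −0.24 and 0.20 in all 4 comparisons. The list median lay between −0.07 and 0.08, against −0.001 to 0.008 over all genes.

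Most receptor genes read lower with PRDM14 in scramble cells, by unequal amounts. Of 6 receptor genes above the filter 5 read lower with PRDM14 than without it, with a median of −0.39 against 0.002 over all genes. The type I receptor gene Acvr1b read 7.97 on the scramble with PRDM14 array and 8.59 on the scramble array, and Acvr2a 6.37 and 6.88. Tgfbr1, a type I receptor gene for TGF-beta ligands, read 7.40 and 7.80. The other receptor genes for TGF-beta ligands were not lower by a like amount, with Tgfbr2 at −0.02 and the co-receptor gene Tgfbr3 at 0.28, and a second probe set of Acvr1b, at 5.37 to 5.55, gave 0.11. In knockdown cells the receptor median was −0.002, with 3 genes higher and 3 lower. Acvr1b, Acvr2a, Tgfbr1 and Acvr2b read highest on the scramble array, the array that stood furthest from the rest, and its part in the difference was not tested. On the arrays with PRDM14, 5 of 6 receptors read higher in the knockdown than in scramble cells, with a median of 0.23, and without PRDM14 4 of 6 read lower, with a median of −0.20.

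SMADs and their partners tended to read slightly higher in the knockdown. Without PRDM14 8 of 12 were above 0, with a median of 0.18, and with PRDM14 11 of 12, with a median of 0.17, against 0.008 and 0.003 over all genes. In both comparisons 7 of the 12 were above 0 and none was below 0, while of all 10154 genes 28.1% were above 0 in both and 25.1% below. The 7 included Smad2, Smad3, the corepressor genes Drap1 (0.27 without and 0.32 with PRDM14) and Skil (0.35 and 0.08), and the inhibitory Smad7 (0.02 and 0.18). For scale, probe sets of the same gene varied with an SD of 0.21 without and 0.16 with PRDM14. Tgif1, a homeobox corepressor of SMAD targets, was 0.87 higher with PRDM14 in scramble cells and 0.35 higher in knockdown cells. Foxh1, the forkhead partner of SMAD2 and SMAD3, read 7.01 on the knockdown with PRDM14 array and 6.40 on the knockdown array, a difference of 0.61, against 6.77 and 6.73 on the scramble arrays with and without PRDM14, a difference of 0.05. Its other probe sets gave 1.15 and 0.22 in knockdown and 0.54 and 0.04 in scramble cells. The value of 1.15 passes 2-fold, on a probe set above the filter on all 4 arrays that is not the brightest of the gene.

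More of the genes listed as Nodal and activin targets read higher than lower with PRDM14, and in the knockdown they were mixed. The list also holds the members Lefty1, Lefty2 and Nodal, so they are counted again here. It holds Id1, Id2 and Id3 too, which are also BMP targets and are counted again in the BMP branch below. All calls of higher with PRDM14 in scramble cells, and in the knockdown without PRDM14, fell on these Id genes. In scramble cells 7 of 9 targets above the filter read higher with PRDM14, with a median of 0.58, which is the value of Nodal. In knockdown cells 8 of 10 read higher, with a median of 0.12. The medians over all genes were 0.002 and −0.001. Of 9 tested in both, 5 were above 0 in both and 0 below in both. The shares of all genes with these signs under PRDM14 were not counted. In scramble cells 2 were called higher, Id1 (3.63) and Id2 (2.54), against 1.09% of all genes. Without PRDM14, of 10 targets above the filter 3 were called higher in the knockdown, a call that 0.618% of all genes met, and 2 lower, Lefty2 and Otx2. With PRDM14 none was called higher and 1 lower, again Lefty2. Otx2, a homeobox gene of the epiblast and anterior neural plate, read 7.75 on the knockdown with PRDM14 array and 6.44 on the knockdown array, against 8.25 on the scramble with PRDM14 array and 7.60 on the scramble array. Like Lefty2 it was lowest on the knockdown array, 1.16 lower than on the scramble array, and it was 1.31 higher with PRDM14 in knockdown cells, where 0.359% of all genes were called higher. The targets called higher in the knockdown without PRDM14 were Id1 (2.28), Id2 (1.83, and 1.12 as the mean of its probe sets) and Id3 (1.03), which are also BMP targets, and all 3 read lowest on the scramble array. Among the antagonists Fst, which encodes the activin-binding follistatin, was 0.41 higher with PRDM14 in knockdown and 0.63 higher in scramble cells, and Bambi, which encodes a decoy receptor, 0.29 and 0.17 higher.

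**Figure D3:**
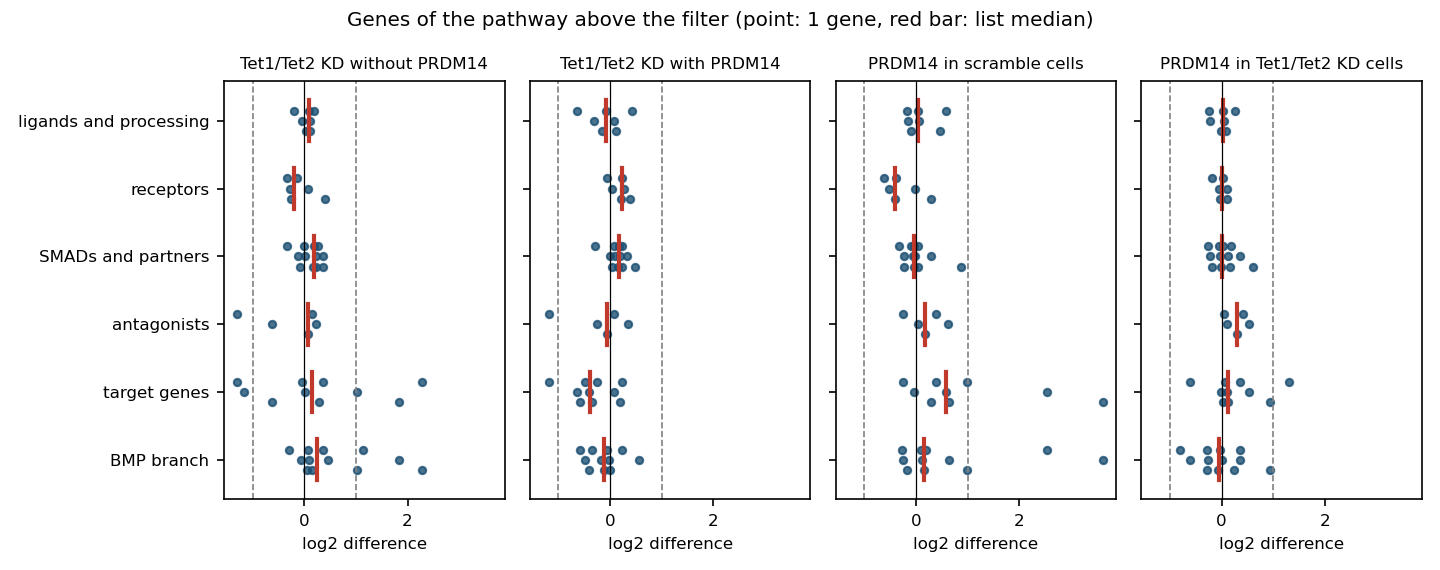
Log2 differences (x axis) of the genes of 6 pathway lists above the filter (rows), in the 4 comparisons, knockdown minus scramble or with minus without PRDM14; a point is 1 gene, a red bar the list median and dashed lines mark 2-fold. The receptors centre on −0.39 for PRDM14 in scramble cells, the SMADs and partners on 0.18 and 0.17 in the knockdown panels, and the points beyond 2 are Id1 and Id2.

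Genes with a like pattern were sought by the root mean square distance between centred log2 profiles over the 4 arrays, among 10518 other genes above the filter on at least 1 array. With 4 arrays such a likeness is a description. Nearest to Lefty2 were Cpeb4 (distance 0.06), Pax6 (0.18), Tet2 (0.19), Mob4 (0.21) and Manba (0.22). Pax6 is also on the neuroectoderm marker list and read 5.69, 5.36, 7.12 and 6.26 on the knockdown with PRDM14, knockdown, scramble with PRDM14 and scramble arrays, and its part was not tested. Cpeb4, an RNA-binding protein gene, read 5.83 and 5.25 on the knockdown arrays with and without PRDM14, against 6.87 and 6.45 on the corresponding scramble arrays. Like Lefty2, Cpeb4 and Pax6 lay below the filter on the knockdown array. Lefty2 and these nearest genes ran in the same order: scramble with PRDM14 highest, then scramble, knockdown with PRDM14 and knockdown. These nearest genes were picked by likeness to Lefty2, so a shared order follows from that choice. The share of all genes in that order was not counted, and a link to Tet2 was not tested. Lefty2 had few near neighbours: Lefty1 and Nodal lay at distances of 0.49 and 0.49 from it and ranked 153 and 166 in likeness to it, while Lefty2 ranked 10011 in likeness to Lefty1 and 10005 to Nodal, of 10518 genes.

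Nearest to Lefty1 were Ckap2l (0.03), Tex9 (0.03), Mcm5 (0.03), Zfp110 (0.03) and Napepld (0.04). Napepld reached the filter on the scramble arrays alone. Nearest to Nodal were AA414768 (0.01), Slc16a3 (0.04), Lrr1 (0.05), Midn (0.05) and Lamc1 (0.05). AA414768 and Slc16a3 reached the filter only on the scramble with PRDM14 array, where Nodal is highest. They entered the comparison only by being high there. No member was among the 5 nearest to another. A profile of small range such as that of Nodal has many close neighbours.

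**Figure D4:**
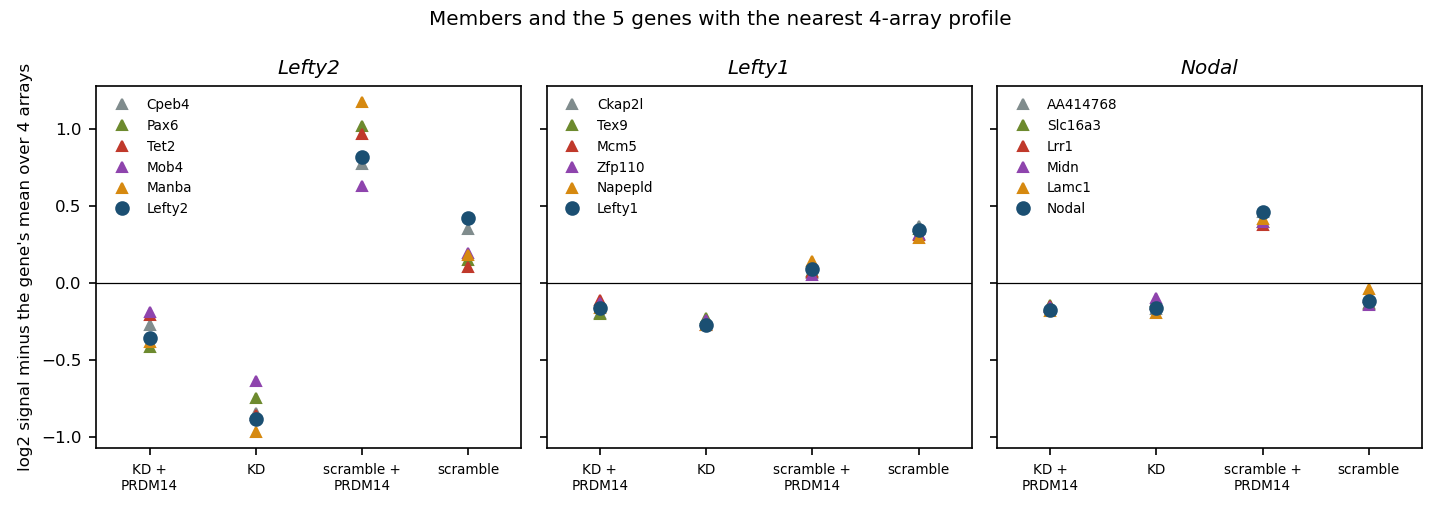
Log2 signal minus the gene's own mean over the 4 arrays (y axis) on each array (x axis), for Lefty2, Lefty1 and Nodal (circles) and the 5 genes nearest to each (triangles). Lefty2 and its neighbours are highest on the scramble with PRDM14 array and lowest on the knockdown array, Lefty1 and its neighbours highest on the scramble array, and Nodal and its neighbours stand out on the scramble with PRDM14 array alone.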

How the data were processed

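The authors deposited 1 log2 signal per probe set and array. The submitters' processing notes list the Affymetrix Expression Console. Version, background correction and summary method: not given in the sources used here. Values ran over 2.78 to 13.2, from which base 2 was taken, and no genome build is named. Per the labels' protocols total RNA was labelled with a 3′ IVT Express kit. Probe sets were named from the platform annotation: 28898 had 1 gene, 551 several and 15588 none, and 104 were controls. Entrez identifiers of 28689 were found in the RefSeq table of GRCm38.p6, with 0 symbols changed. Where a gene had several probe sets the brightest by mean stood for it, and every probe set of the members was kept. Groups were taken from the sample titles. Differences were taken between single arrays, with the 2-fold rule and the filter of 5.40. The average effects were fitted on all genes above the filter with limma 3.58.1 in R 4.3.3 (lmFit, eBayes with trend, median prior degrees of freedom 2.25, Benjamini-Hochberg at 5%). Simulated data served to test the procedure. With 1 array per condition the residual error of this fit is the departure from additivity, moderated over genes, so its p-values set the average effects against that error and not against a spread between cultures. The members, the 11 gene lists and the promoter CG count were chosen with earlier results of these data known. Named genes were all members, up to 4 genes per pathway list and comparison with the largest difference, and the 5 nearest profiles of Lefty1, Lefty2 and Nodal, and some further list genes were named after their values were seen. Alternatives changed the fold threshold, filter, probe set summary, scaling and limma settings.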

Additional observations from a re-analysis of the deposited data

Results flagged for a closer look

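With 1 array per condition, opposite signs of a difference under the same contrast in the 2 backgrounds were looked for among the members and the called pathway genes. The difference between backgrounds was not tested in any case below. For PRDM14, Lefty1 was at 0.11 in knockdown and −0.25 in scramble cells, apart by 0.36, and Nodal was at −0.01 and 0.58, apart by −0.59, where the value near 0 in knockdown cells changed sign to 0.04 on the second probe set. For PRDM14 Id3 was at −0.62 in knockdown and 1.00 in scramble cells, just under the 2-fold rule, apart by −1.61. For the knockdown, Acvr2b was at 0.22 with and −0.14 without PRDM14, apart by 0.35, but its second probe set gave 0.02 and −0.08, apart by 0.10. Id1 was at −0.41 and 2.28, apart by −2.69, Id2 at −0.35 and 1.83, apart by −2.19 (−1.36 as the mean of its probe sets, 1 of which lay below the filter), and Id3 at −0.59 and 1.03, apart by −1.61. For Id1, Id2 and Id3 the scramble array was the lowest of the 4.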

How the results depend on the processing

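Of 238 differences of the member genes read under the alternatives, 233 kept their side of the fold rule in use, 2 lost a call and 3 gained one. Settings that move only the fold threshold or the filter level leave the values as they were. Lefty2 alone had calls that could change sign, and 0 did. Some uncalled values changed sign. Among them were the dependence for Lefty2 (0.13 to −0.12) and the PRDM14 difference of Nodal in knockdown cells (−0.01 to 0.02). The 2 lost calls were those of Lefty2 at 3-fold, by construction of the threshold. At 1.5-fold Lefty1 was called in the knockdown without PRDM14, and Nodal in the knockdown with PRDM14 and in the dependence of its PRDM14 difference on the knockdown. With the filter at the 75th percentile, 6.82, Lefty2 did not enter the knockdown comparison without PRDM14 and had no value there. Over the settings that gave one, its difference ranged from −1.32 to −1.06 without and from −1.20 to −1.18 with PRDM14. Counts over all genes were 849 and 52 at 1.5- and 3-fold for PRDM14 in scramble cells (217 at 2-fold), 290 and 13 for PRDM14 in knockdown cells (65), 527 and 21 for the knockdown without PRDM14 (110), 448 and 12 for the knockdown with PRDM14 (114), and 957 and 49 for the dependence on the knockdown (239). With the mean of the probe sets of a gene, 43 were counted for PRDM14 in knockdown cells, with fewer genes tested. The limma calls were 0 under all 6 alternatives for each factor, and the adjusted p of Lefty2 for the knockdown ranged from 0.66 to 0.84. No paired analysis was possible because the labels give no replicate numbers and each condition has 1 array, while the additive limma model already holds the other factor as a term. No difference that uses the scramble array can be had without it.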

Other observations

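The BMP branch of the same receptor superfamily, which signals through SMAD1, SMAD5 and SMAD9, was read beside the Nodal genes. With PRDM14 in scramble cells 2 of 11 of its genes above the filter were called higher, Id1 (3.63) and Id2 (2.54), against 1.09% of all genes. Of 12 of its genes above the filter 4 read at least 2-fold above scramble in the knockdown when PRDM14 was not added, against 0.618% of all genes. These were Id1, Id2, Id3 and the inhibitory Smad6 (1.14, and 0.77 with values raised to the filter). Smad6 reached the filter on the knockdown array alone, at 6.16, so it entered the 12 only by being high there. Of 11 in the knockdown with PRDM14 none was called. Bmp4, a ligand gene, read 6.79 on the knockdown with PRDM14 array and 7.08 on the knockdown array, against 7.27 on the scramble with PRDM14 array and 6.62 on the scramble array. Smad1 was 0.57 higher in the knockdown with PRDM14 and 0.36 higher without it, and its second probe set lay below the filter.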
